A study of Mus musculus with 14 samples.

Results

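The genes described here are the secreted Wnt ligands, their Frizzled and Lrp receptors, the secreted Wnt antagonists, the R-spondins with their Lgr receptors, and 2 nuclear or feedback genes of the pathway, Axin2 and Lef1. Membership goes by gene symbol, and the family was chosen with earlier results of these data known. The rule found 51 genes, each measured by 1 probe, among 16877 genes tested. They comprised 19 ligands, 12 receptors and co-receptors, 11 secreted antagonists, 7 R-spondins or Lgr receptors, and Axin2 and Lef1. Tcf7, which the rule also names, had no probe under that symbol and was not analysed here. RNA came from 12 mammary tumours of Brg1+/- mice, which carry Smarca4, the gene of the SWI/SNF ATPase Brg1, in the heterozygous state. The 14 microarrays had 2 channels, with tumour RNA labelled with Cy5 and a mouse reference RNA, shared by all arrays, labelled with Cy3. Values below are log2 ratios of tumour over reference. All 12 tumours share the genotype, and neither normal mammary gland nor tumours of Brg1+/+ mice were compared, so the comparisons are between tumours. The labels carry the word MIXED without explaining it, name no strain, age or treatment, and do not say whether each tumour came from a separate animal.

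Wnt proteins are secreted, lipid-modified ligands that bind a Frizzled receptor together with the co-receptor Lrp5 or Lrp6. In the canonical branch this stabilises beta-catenin, which acts with the transcription factors Tcf7 and Lef1. Axin2, Notum, Lgr5 and Nkd1 are among the genes it induces, and several of its products feed back on the pathway. Sfrp proteins and Wif1 bind the ligands, Dkk1 and Sost bind Lrp5 and Lrp6, and Notum removes the lipid from Wnt. R-spondins act through Lgr4, Lgr5 and Lgr6 to keep Frizzled at the cell surface. In the mammary gland Wnt signals take part in placode formation, in side branching and in the upkeep of basal cells, and Wnt genes were among the first activated by mouse mammary tumour virus.

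The tumours were not alike in their epithelial content. The mean log2 ratio of 11 basal epithelial genes, among them Krt5, Krt14 and Trp63, ran between -1.46 in T172 and 2.11 in T2023. Not all of the 11 followed this order. The integrin gene Itga6 was highest in T284 (1.9), with 1.10 in T172 and 0.40 in T2023. Itgb4 was highest in T2023 (3.06) but also high in T172 (2.12) and T284 (1.78), and both integrin genes were lowest in T176. The mean of 11 luminal genes was -2.69 in T176, while the other 11 tumours lay between 0.57 and 2.15, so T176 lacked the usual luminal profile. The mean of 6 osteoblast genes was 3.47 in T176 and -3.06 to -1.30 elsewhere. For T172 and for T284 there was another array each, called a biorep by its label and the second array here. With each gene's mean over tumours removed, the second arrays of T172 and T284 correlated at 0.616 across genes, the first arrays of T172 and T284 at 0.549, and the pairs of arrays within T172 and within T284 at 0.709 and 0.703. Genes are not independent replicates, and these are descriptions. The within-tumour spread in every F-test below rests on T172 and T284 alone, and p-values therefore describe these samples. In bulk tumour RNA, fewer cells of a type and less RNA per cell cannot be told apart. A ratio carries no signal level, so a flat gene may be either steady or too dim to measure.

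Of the 51 genes, 20 passed limma's F-test for a difference between tumours with an adjusted p below 0.05 (39.2%), against 18.3% of all genes tested. At an adjusted p under 0.01 the count was 12 (23.5%), against 9.35% of all genes. The median SD over 12 tumours was 0.562 for the family and 0.386 for all genes, and the median within-tumour SD was 0.316 and 0.306. By role, 7 of 11 antagonists, 7 of 19 ligands, 3 of 7 R-spondins or Lgr receptors and 3 of 12 receptors were called. Neither Axin2 nor Lef1 was called. Of the 31 genes not called, 6 had an unadjusted p under 0.05, and their SDs lay between 0.143 for Fzd5 and 0.865 for Lef1. Among the 20 called genes, T172 or T284 held the lowest value in 11 and the highest in 3, and T221 held the highest in 4. With 2 arrays each, T172 and T284 weigh more in the F-test, which favours genes where they are extreme. The same counts over all called genes were not taken, so these counts only describe the 20 genes. Only Fzd4 was more than 2-fold below the reference in all 12 tumours. Dkk2, Wnt11, Lef1, Wnt3 and Wnt2 were also below it in every tumour, and Lrp6, Lgr6, Sost, Rspo4, Wnt9b and Fzd5 above it in every tumour. Unlike differences between tumours, these levels include any dye effect and depend on the reference RNA.

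**Figure D1:**
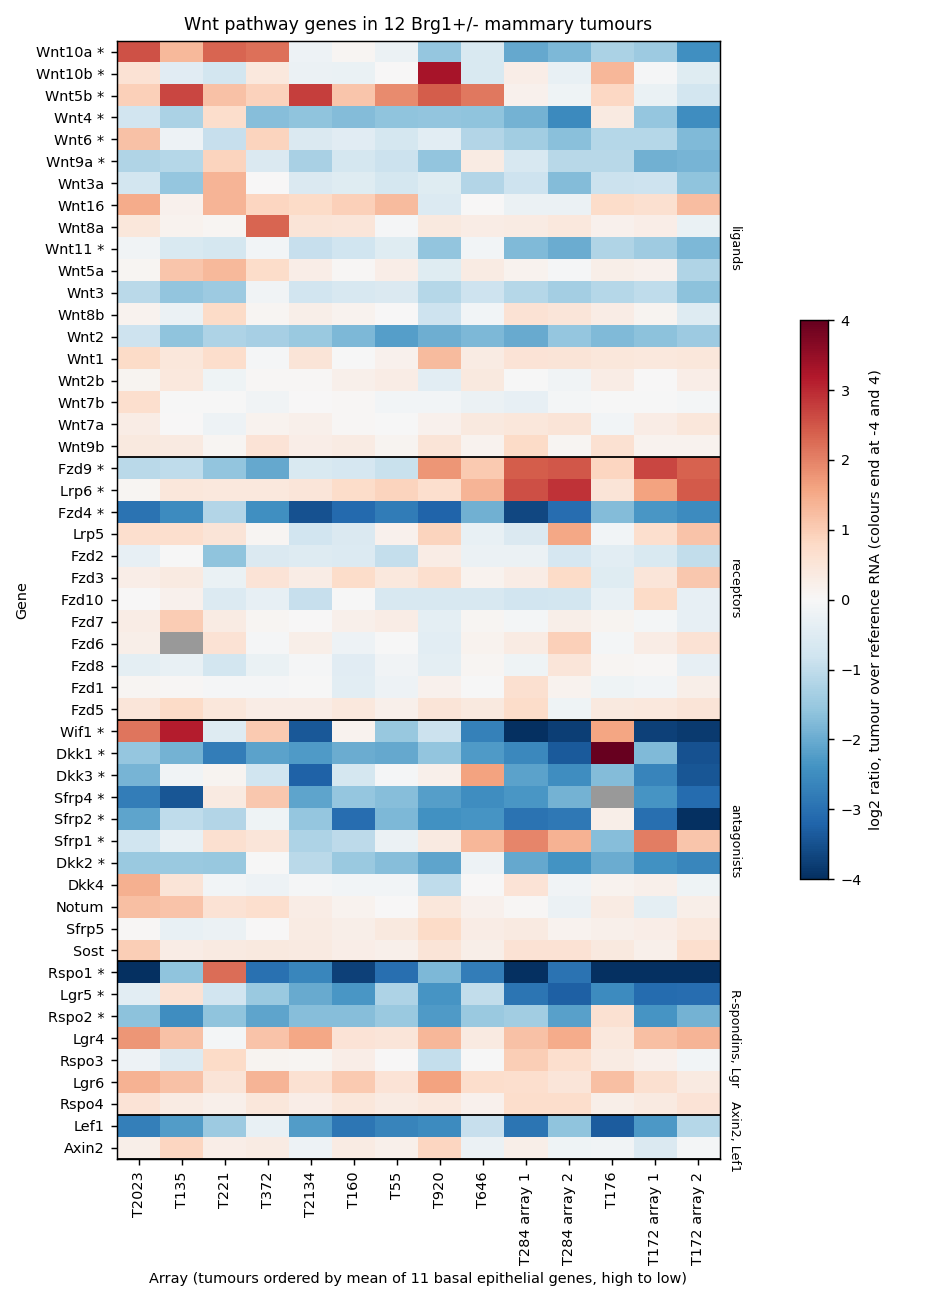
Log2 ratio of tumour over reference RNA for 51 Wnt pathway genes (rows, by role and then by SD over tumours) on 14 arrays (columns, tumours ordered by the mean of 11 basal epithelial genes, high to low). Asterisks mark the 20 genes called by the F-test and grey marks missing values. Wnt10a is red in T2023, T135, T221 and T372 and blue in T284 and T172, and Fzd9 shows the opposite.

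Among the ligands, Wnt10a had the widest spread. Wnt10a, a ligand of skin appendage and tooth development, had a lowest log2 ratio of -1.96 in T172, a median of -0.22 and a highest of 2.55 in T2023. It was also high in T221 (2.32), T372 (2.22) and T135 (1.31), and low in T284 (-1.92), T920 (-1.54) and T176 (-1.26). The high and the low tumours were thus separated by more than 4 log2 units at the extremes, with a within-tumour SD of 0.363 (adjusted p = 0.000702). Wnt6, a ligand of epithelial tissues, followed with 1.17 in T2023 and 0.88 in T372, and -1.53 to -0.20 in the other 10 tumours (median over 12 tumours -0.64, adjusted p = 0.0159). T221 and T135, high in Wnt10a, were not high in Wnt6, at -0.92 and -0.20.

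Wnt5b, which acts mostly outside the beta-catenin branch, was the called ligand with the highest mean, 1.36 ± 1.03 (SD, n = 12). Its log2 ratio was 2.76 in T2134, 2.67 in T135, 2.43 in T920 and 2.12 in T646, but -0.51 in T172 and -0.01 in T284 (median 1.13, adjusted p = 0.00255). Wnt5b was below the reference in T172 and about at it in T284, where the 2 arrays read 0.17 and -0.19, and above it in the other tumours. Wnt11, another ligand of that branch, had a median of -0.74 and was lowest in T284 (-1.87), T172 (-1.61) and T920 (-1.59) and highest in T646 (-0.10; adjusted p = 0.0382). The Wnt11 call was lost without T284 (adjusted p = 0.0934) and without either of its arrays (0.0533 without the first, 0.0674 without the second).

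Wnt4, which acts downstream of progesterone in side branching, was above the reference only in T221 (0.69) and T176 (0.35). In the other 10 tumours it lay between -2.23 and -0.77, with a median of -1.61 over all 12 (adjusted p = 0.0304). Wnt9a was highest in T221 (0.90) and T646 (0.32) and between -1.89 and -0.59 elsewhere, with a mean of -0.84 ± 0.78 (SD, n = 12; adjusted p = 0.0170). Both calls rested partly on T221, since without it the adjusted p was 0.107 for Wnt4 and 0.0701 for Wnt9a, and Wnt4 also lost its call without T176 (0.0719). Of the 12 ligands not called, Wnt16 came closest, with -0.54 in T920 and 1.49 in T2023 (adjusted p = 0.0504). Wnt7a, Wnt7b, Wnt9b and Wnt2b varied least, with SDs of 0.210, 0.231, 0.181 and 0.253.

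Fzd9, a Frizzled receptor, was the most clearly varying receptor and ran against Wnt10a. Its log2 ratio was 2.53 in T172, 2.46 in T284, 1.75 in T920, 1.06 in T646 and 0.87 in T176. In the other 7 tumours it lay between -2.05 in T372 and -0.61 in T2134, with no value between -0.61 and 0.87 (adjusted p = 0.000197). The pairs of arrays agreed closely, with 2.68 and 2.37 in T172 and 2.42 and 2.49 in T284. Lrp6, a co-receptor of canonical signalling, was highest in the same pair of tumours, at 2.73 in T284 and 2.03 in T172, followed by 1.35 in T646. Elsewhere Lrp6 lay between 0.08 and 0.88 (median over 12 tumours 0.58, adjusted p = 0.0157), and its call was lost without T284 (adjusted p = 0.108). Lrp5, its paralogue, was not called and its arrays did not agree, with -0.56 and 1.56 in T284 (within-tumour SD 0.576).

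Fzd4, the receptor of Norrin on endothelial cells, was far below the reference throughout. It was lowest in T2134 (-3.50) and highest in T221 (-1.18), T176 (-1.75) and T646 (-1.93), with a median of -2.67 (adjusted p = 0.0419). The call was lost without T221 (adjusted p = 0.112) and without T176 (0.0580). The mean of 8 endothelial genes was also highest in T646 (-0.21), T221 (-0.36) and T176 (-0.48), and -1.29 to -0.64 in the other 9 tumours. The F-test called 2 of these 8 genes. The part of endothelial content in the Fzd4 values was not tested. The other 9 receptors, Lrp5 among them, were not called, and Fzd5 had the smallest SD of the family (0.143). Fzd6 was tested without T135, where its value was missing.

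The secreted antagonists held the gene with the widest spread of the family. Wif1, which binds Wnt ligands, had a log2 ratio of 3.14 in T135, 2.14 in T2023, 1.57 in T176 and 1.05 in T372. It was -4.21 in T284, -3.78 in T172, -3.39 in T2134 and -2.69 in T646, with a median of -0.70 and an SD of 2.44 (n = 12, adjusted p = 0.000101). The extremes lay far apart beside a within-tumour SD of 0.350. Dkk3, a divergent member of the Dickkopf family, showed another order, with 1.60 in T646, -3.24 in T2134, -3.03 in T172 and a median of -0.75 (adjusted p = 0.000954). Dkk2, which binds Lrp6, was below the reference in every tumour but nearly at it in T372 (-0.02) and T646 (-0.21), against -2.52 in T172 (median -1.51, adjusted p = 0.0159).

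The Sfrp genes, which encode Frizzled-like decoys for Wnt, did not vary as a unit. Sfrp1 was highest in T284 (1.67), T172 (1.57) and T646 (1.33) and lowest in T176 (-1.69), with a median of 0.05 (adjusted p = 0.00586). T172, T284 and T646 were also the top tumours for Lrp6. Sfrp2, a gene of fibroblasts, was near the reference in T176 (0.23) and T372 (-0.18) and lowest in T172 (-3.66), with a median of -1.95 (adjusted p = 0.00784). Sfrp4 exceeded the reference only in T372 (1.08) and T221 (0.36) and lay between -3.43 and -1.54 in the other 9 tumours with a value (adjusted p = 0.00231). Sfrp4 was tested without T176, where its value was missing. Sfrp5, Sost, Dkk4 and Notum were not called.

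Dkk1, an inhibitor that binds Lrp5 and Lrp6 and is itself induced by beta-catenin, was called in 1 tumour only. Its log2 ratio was 4.31 in T176, against a mean of -2.19 ± 0.46 (SD, n = 11) and a range of -2.96 to -1.54 in the others. The difference was 6.50 ± 0.45 (SE, 1 tumour against 11; limma adjusted p = 4.27e-06). The 2 arrays of T172 read -1.78 and -3.50 and those of T284 -2.57 and -3.35 before averaging (within-tumour SD 0.519), so arrays of 1 tumour differed about as much as the other tumours did. Without T176 the F-test adjusted p was 0.72. In the same tumour Rspo2, an R-spondin of limb and mesenchyme, was 0.62, against -1.86 ± 0.34 (SD, n = 11) and at most -1.49 in the others. That difference was 2.48 ± 0.35 (SE; limma adjusted p = 0.00114). Dkk1 and Rspo2 were 2 of 51 family genes called in T176, where 3.83% of all genes were called. Luminal genes were low and osteoblast genes high in T176, as given above, and their part in these differences was not tested.

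Promoter windows are shown for the called genes whose window held a Tcf/Lef-type heptamer, because Dkk1 and other pathway genes are known to answer to beta-catenin. Windows run 250 bases before to 50 after an annotated start, are from RefSeq on GRCm38.p6 and are printed 5′ to 3′ on the gene's strand. The heptamer CTTTGAA was searched on both strands, as were its relatives CTTTGAT, the heptamer CTTTGTA, and finally the heptamer CTTTGTT, with overlaps counted. Matches are in capitals. Dkk1 (chr19:30549447-30549746, minus strand) held CTTTGAA beginning 117 bases before the start and also CTTTGTT beginning 98 bases before it. Wnt11 (chr7:98834862-98835161, plus strand) held CTTTGAT on the opposite strand, so that the printed line shows its reverse complement, beginning 51 bases before the start. For Wnt5b (chr6:119449337-119449636, minus strand) the match, CTTTGAT at 71 bases, lay at 1 of 3 annotated starts.
Dkk1: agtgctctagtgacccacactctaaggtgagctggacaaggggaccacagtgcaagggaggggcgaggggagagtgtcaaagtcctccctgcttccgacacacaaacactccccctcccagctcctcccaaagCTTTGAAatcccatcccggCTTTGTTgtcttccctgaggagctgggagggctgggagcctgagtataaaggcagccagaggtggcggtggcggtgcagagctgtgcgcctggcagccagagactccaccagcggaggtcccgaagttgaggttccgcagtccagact
Wnt11: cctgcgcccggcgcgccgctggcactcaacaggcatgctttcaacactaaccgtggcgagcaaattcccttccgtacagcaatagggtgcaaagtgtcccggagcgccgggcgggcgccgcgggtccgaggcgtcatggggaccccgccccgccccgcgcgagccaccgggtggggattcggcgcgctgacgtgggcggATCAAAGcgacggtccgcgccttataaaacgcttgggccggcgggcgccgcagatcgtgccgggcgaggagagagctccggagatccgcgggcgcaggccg
Wnt5b: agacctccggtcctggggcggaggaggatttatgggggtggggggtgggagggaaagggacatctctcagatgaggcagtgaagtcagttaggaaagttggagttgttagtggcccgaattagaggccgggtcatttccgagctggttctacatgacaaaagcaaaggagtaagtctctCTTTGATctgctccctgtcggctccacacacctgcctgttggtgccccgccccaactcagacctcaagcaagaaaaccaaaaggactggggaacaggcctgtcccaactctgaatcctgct
Over the 33 family genes with a window, 6 of 39 windows held a match (15.4%), against 16.9% of 32851 windows of all genes. A match is a description of the letters and not evidence of a bound site.

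Other tumours also had 1 family member far above the rest. Wnt10b, a canonical ligand of the mammary bud and a known target of viral insertion in mouse mammary tumours, was 3.29 in T920. In the other 11 tumours it averaged -0.02 ± 0.60 (SD, n = 11), with 1.33 in T176 as the next highest. The difference was 3.32 ± 0.58 (SE; limma adjusted p = 0.0436), where 0.219% of all genes were called in T920. This call was narrow, since it was lost in 15 of 21 alternatives (adjusted p 0.0506 to 0.108), although the difference stayed between 3.24 and 3.38 in those. Wnt8a, an embryonic ligand, was 2.32 in T372, against 0.26 ± 0.20 (SD, n = 11) and at most 0.53 in the others. That difference was 2.06 ± 0.25 (SE; limma adjusted p = 0.0214), where 0.0594% of all genes were called in T372. The F-test did not call Wnt8a (adjusted p = 0.0764), and the call in T372 was lost without T172 and T284 (0.0509).

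T221 had the highest Rspo1 and Wnt3a values, neither of which passed the test against the other tumours. Rspo1, an R-spondin that luminal cells of the mammary gland secrete, was 2.23 in T221, against -3.22 ± 1.02 (SD, n = 11) and -4.76 to -1.61 in the other 11 tumours. The difference was 5.45 ± 0.96 (SE), just outside the threshold (limma adjusted p = 0.0546). Rspo1 was called by the F-test (adjusted p = 0.000738), also without T221 (0.0191). Wnt3a, a canonical ligand, was 1.37 in T221, against -0.83 ± 0.45 (SD, n = 11) in the others (difference 2.20 ± 0.45, SE; limma adjusted p = 0.0925). T221 also had the highest mean of 8 adipocyte genes, -1.24 against -3.70 to -2.24 elsewhere, and its part in these values was not tested. Over the 610 tests of a family gene in a tumour against the other 11, 4 were called, each of a different gene. That is 7.84% of the 51 genes called in at least 1 tumour, against 4.73% of all genes.

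**Figure D2:**
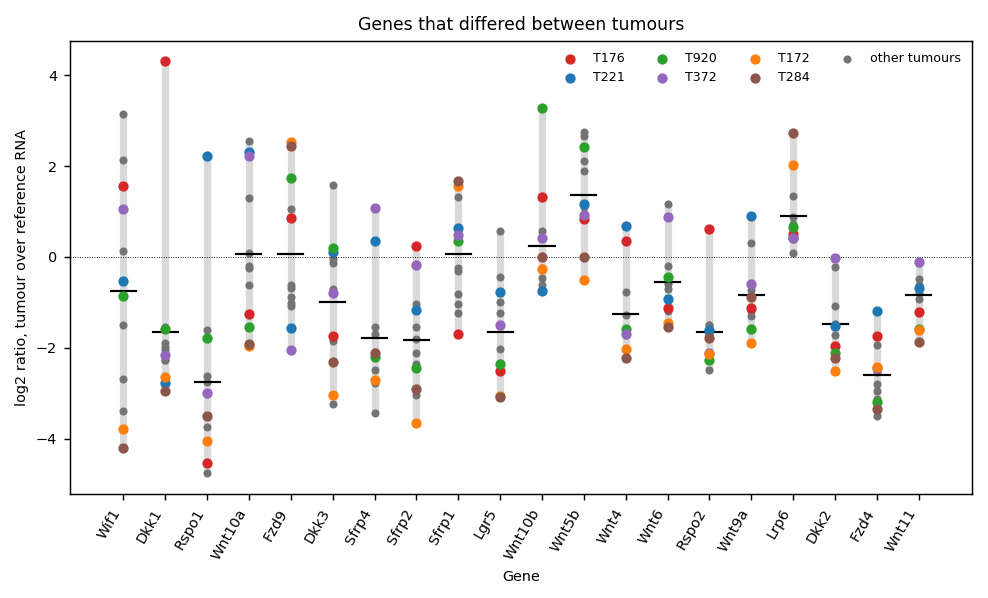
Log2 ratio of tumour over reference RNA in each of 12 tumours for the 20 genes called by the F-test, ordered by SD over tumours. Points are tumours (where a tumour had 2 arrays, their mean), grey bars span lowest to highest and black lines are means. Dkk1 in T176 (4.31), Rspo1 in T221 (2.23) and Wnt10b in T920 (3.29) stand clear of the other tumours.

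Among the Lgr receptors, Lgr5, an R-spondin receptor that marks stem cells in several epithelia, was above the reference only in T135 (0.57). It was next highest in T2023 (-0.44) and T221 (-0.77) and lowest in T284 (-3.09) and T172 (-3.07), with a median of -1.76 (adjusted p = 0.00149). Lgr4 and Lgr6, the other members, were mostly above the reference, with means of 0.94 ± 0.57 and 0.93 ± 0.40 (SD, n = 12), and were not called (adjusted p = 0.0876 and 0.290). Rspo3 and Rspo4 were not called either. The F-test call of Rspo2 was marginal (adjusted p = 0.0497) and was lost without T176 (adjusted p = 0.734).

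Axin2, the scaffold protein whose transcript is used as a readout of beta-catenin signalling, was not called. Its spread over tumours was close to the median SD of all genes (0.386). Its log2 ratio was 0.85 in T920 and 0.84 in T135, -0.31 in T172, and had a median of 0.23 (SD 0.382, n = 12). The within-tumour SD was 0.316, and the F-test adjusted p was 0.433. When every other gene was fitted on the Axin2 ratio over the 12 tumours, limma called 0 of 50 family genes and 0 of 16876 genes in all (0%). At an unadjusted p under 0.05, 4 family genes passed, Wif1, Lgr6 and Notum with a positive slope and Rspo3 with a negative one, and 8.18% of all genes did. The slope of Wif1 was 3.78 ± 1.45 (SE) log2 units per unit of Axin2 (limma adjusted p = 0.591). The F-test did not tell the Axin2 differences between tumours from array spread, so this fit cannot decide whether genes follow Axin2.

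Lef1, a transcription factor of the pathway that T cells also express, was below the reference in every tumour. It was highest in T372 (-0.29) and T646 (-0.93) and lowest in T176 (-3.31), with a median of -2.26. Its second arrays lay above the first by 1.17 in T172 and 1.34 in T284, and it was not called (adjusted p = 0.163). The same direction of shift in both tumours was seen for 29 of 51 family genes (56.9%) and for 60.7% of all genes. T646 and T372 also had the highest means of 11 T cell genes, 0.91 and 0.49, against -0.54 to 0.15 in the other 10 tumours. The F-test called 6 of these 11. Cd8b1, Cd3d, Cd8a, Cd6, Cd2 and Cd3g were highest in T646. Cd5 and Cd3e were highest in T2023, Cd28 and Cd247 in T176, and Cd4 in T135. Fitted on the T cell mean, Lef1 had a slope of 1.35 ± 0.37 (SE; limma adjusted p = 0.256). Limma called 0 of 51 family genes on the T cell mean and 0.201% of all genes, and at an unadjusted p under 0.05 the counts were 5 of 51 and 5.78% of all genes. Those 5 were Dkk2, Lef1, Wnt9a, Dkk3 and Wnt11, all with positive slopes.

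Several members followed the basal epithelial genes. Over 12 tumours each gene was fitted with limma on the mean log2 ratio of the 11 basal genes, and 5 of 51 family genes were called (9.80%), against 3.12% of all genes. Wnt10a had a slope of 1.23 ± 0.14 (SE) log2 units per unit of the basal mean (limma adjusted p = 0.000675). The slope of Lgr5 was 0.70 ± 0.16 (limma adjusted p = 0.0316), that of Wnt6 0.52 ± 0.12 (0.0391) and that of Notum 0.30 ± 0.06 (0.0174). Fzd9 ran the other way, at -1.04 ± 0.21 (limma adjusted p = 0.0171). Lrp6 had a slope of -0.44 ± 0.13 without a call (limma adjusted p = 0.0876), and Wif1 one of 1.26 ± 0.41 (0.131). The basal mean comes from the same arrays as the family genes. The mean of 11 squamous epithelial genes, among them Krt10, Ivl and Sprr1a, was highest in the same 4 tumours as the basal mean, at 2.22 in T2023, 2.01 in T221, 1.13 in T135 and 0.79 in T372. It lay between -3.34 in T920 and -0.36 in T2134 in the other 8, with -2.92 in T172 and -2.87 in T284. In T920 the squamous mean was the lowest of all while the basal mean was -0.36. The part of squamous content in these slopes was not tested.

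These slopes depended on which tumours entered. Wnt10a was called in all 22 alternatives. Without T172 and T284, lowest and 3rd lowest in the basal mean, Wnt10a alone was called, and without T172 alone the count was also 1. The Fzd9 slope was then -0.78 without both tumours (limma adjusted p = 0.153). Without T2023, highest in the basal mean, 2 genes were called. Without T284 the count was 3, and without T176 it was 7. Wnt6 lost its call in 11 of 22 alternatives, Lgr5 in 7, Notum in 3 and Fzd9 in 2, with slopes that kept their sign. Notum was not called by the F-test (adjusted p = 0.298), and its arrays of T172 read -0.38 and 0.23.

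**Figure D3:**
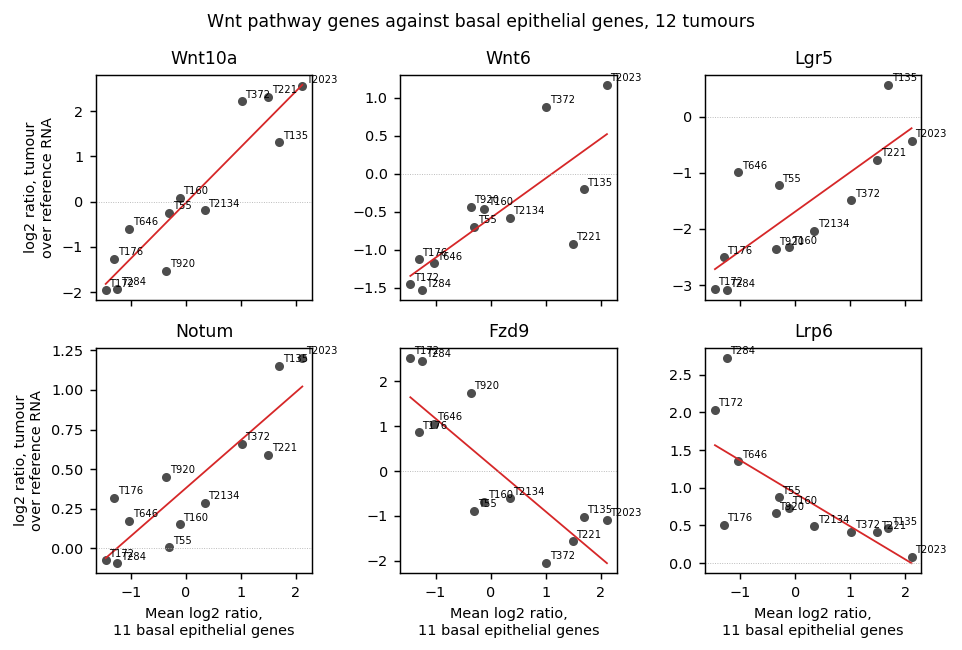
Log2 ratio of 6 Wnt pathway genes (vertical axes, each with its own scale) against the mean log2 ratio of 11 basal epithelial genes (horizontal axes) in 12 tumours. Lines are limma's slopes, 1.23 for Wnt10a, 0.52 for Wnt6, 0.70 for Lgr5, 0.30 for Notum, -1.04 for Fzd9 and -0.44 for Lrp6, the last without a call.

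The mean of fibroblast and matrix genes was followed by 1 family member. This mean of 12 genes lay between -3.43 in T2134 and -0.11 in T176. Its genes disagreed in T176, which was highest for Col1a1 (1.89), Col1a2, Col5a1, Col5a2, Fap and Pdgfra but lowest for Postn (-4.24) and Thy1 (-2.19). Fzd4 rose with the mean, at 0.56 ± 0.10 (SE) log2 units per unit (limma adjusted p = 0.0175). Fzd4 was the 1 gene called of 51 (1.96%), near the share of all genes (1.57%). It was called in all 22 alternatives. Sfrp2 (0.77 ± 0.22, limma adjusted p = 0.114) and Wnt4 (0.57 ± 0.18, 0.161) had positive slopes that did not pass.

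Some Wnt genes lie within 100 kb of each other, and 4 such pairs were compared after their values had been seen. In the GRCm38.p6 gene table Wnt6 neighbours Wnt10a on chromosome 1, Wnt3a neighbours Wnt9a and Wnt9b neighbours Wnt3 on chromosome 11, and Wnt10b neighbours Wnt1 on chromosome 15. Wnt6 and Wnt10a were both highest in T2023, Wnt3a and Wnt9a both in T221, and Wnt10b and Wnt1 both in T920. There Wnt1 was 1.28, against -0.04 to 0.77 elsewhere. Wnt1 was not called by the F-test (adjusted p = 0.439), nor in T920 against the other tumours. Wnt9b and Wnt3 had their highest values in T176 and T372. Over 12 tumours Wnt6 and Wnt10a correlated at r = 0.765 (permutation p = 0.00285, adjusted over the 4 pairs 0.0114) and rho = 0.720 (permutation p = 0.0106, adjusted 0.0425). Without T2023 and T372, the tumours farthest from the median of Wnt6, r was 0.528 over 10 tumours. Both genes also had positive slopes on the basal mean, as given above, and its part in their correlation was not tested. Pairs of Wnt genes that lie apart were not correlated, so the value has no background for comparison. For Wnt3a and Wnt9a r was 0.607 (permutation p = 0.0496, adjusted 0.0708) and rho 0.385 (0.220, adjusted 0.439), and r fell to 0.01 without T221 and T135. For Wnt10b and Wnt1 r was 0.608 (permutation p = 0.0531, adjusted 0.0708) and rho 0.238 (0.459, adjusted 0.613), and r was -0.13 without T920 and T176. The relations of these 2 pairs therefore rested on the tumours left out. For Wnt9b and Wnt3 r was 0.152 (permutation p = 0.638, adjusted 0.638) and rho 0.063 (0.852, adjusted 0.852), with r = 0.104 without T176 and T221.

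**Figure D4:**
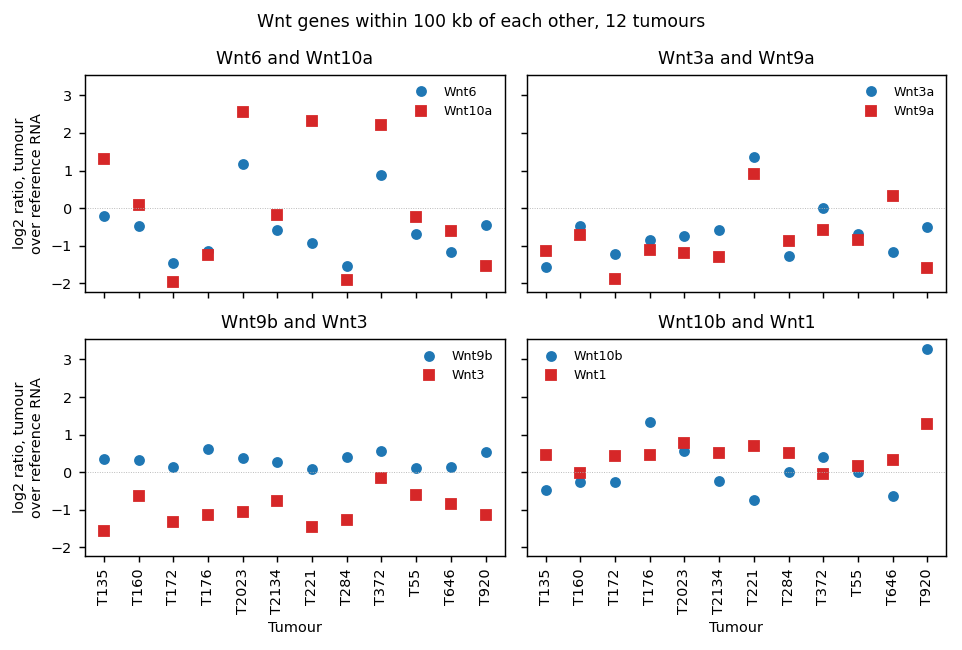
Log2 ratio of tumour over reference RNA in 12 tumours for 4 pairs of Wnt genes that lie within 100 kb of each other in the genome; each panel is a pair, circles the first named gene and squares the second. The highest values of both genes fall in T2023 for Wnt6 and Wnt10a, in T221 for Wnt3a and Wnt9a and in T920 for Wnt10b and Wnt1.

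Other genes of the pathway varied as well. Of 64 measured genes that act in Wnt secretion, at the receptor, inside the cell or in planar polarity, 19 differed between tumours by the F-test (29.7%), against 18.3% of all genes, and their median SD was 0.446. The widest spread belonged to Sostdc1, an antagonist of BMP and Wnt, with 3.37 in T2023 and -4.98 in T646 (adjusted p = 4.91e-05). Apcdd1, an inhibitor induced by beta-catenin, was 1.40 in T2023 and -5.31 in T172 (adjusted p = 0.000109). The feedback gene Nkd1, which binds Dishevelled, was 1.07 in T372 and -4.10 in T284 (adjusted p = 0.00143), and its paralogue Nkd2 was 5.07 in T135 and -0.12 in T176 (adjusted p = 0.000191). T176 was highest for 3 of the 12 with the widest spread, namely Frzb, a Wnt-binding decoy, at 3.07, Porcn, the acyltransferase that lipidates Wnt, at 3.28, and Serpinf1, a secreted serpin, at 2.54. The remaining 5 of these 12 were Ndp (Norrin), Tspan12, Celsr1, Rhou and Tle2, with SDs of 0.943 to 1.40. Among the 12, T176 was lowest for Nkd2, Celsr1 (-1.95) and Rhou (-2.13). How often T176 held an extreme over all genes was not counted. Ctnnb1, the gene of beta-catenin, was not called (adjusted p = 0.0795).

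Genes reported elsewhere as targets of beta-catenin were counted apart, and 16 of 27 measured were called (59.3%), against 18.3% of all genes, with a median SD of 0.691, against 0.386 for all genes. Sp5, a transcription factor induced by Wnt in embryos, was 1.18 in T135, 1.08 in T372 and 0.54 in T2023, and between -2.42 and -1.21 in the other 9 tumours (adjusted p = 0.0056). Ccn4, a matricellular protein, was 3.10 in T176 and -2.89 in T172 (adjusted p = 0.0003). Tnfrsf19, a receptor of the TNF family, was 2.82 in T135 and -1.92 in T646 (adjusted p = 0.000796). Msx2, Edn1, Twist1, Fn1, Klf5, Ccn5, Bambi, Ccnd1 and Mmp7 completed the 12 called genes with the widest spread. Of these, Twist1 and Bambi were highest in T176, while Edn1 (-1.50), Klf5 (-2.19) and Mmp7 (-0.14) were lowest there. These genes answer to many inputs besides Wnt, and the list gives no test of pathway activity.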

How the data were processed

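The deposited series table held, for each of 14 arrays and 22575 probes, a value that the authors made and whose scale was read as a log2 ratio of tumour (Cy5) over reference (Cy3), with the dyes per the labels. Base 2 was inferred from the range, -9.19 to 7.42. Array medians of 0 to 0.018 look centred per array. How arrays were scanned, corrected, normalized and filtered is not stated by any source used. Arrays held 22501 to 22566 values, and their number limits precision.

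Probes with 1 symbol in the platform annotation (18658) were updated through the RefSeq table of GRCm38.p6 (18445 by gene identifier, 24 by accession, 189 unchanged), and probes of a gene were averaged. Genes with values on 12 or more of the 14 arrays, including each array of T172 or each of T284, were kept (16877). Limma 3.58.1 (R 4.3.3) gave a moderated F-test over 12 tumours on all 14 arrays. Each tumour was also tested against the other 11, and each gene's slope on a marker mean or on Axin2 was fitted, after averaging a tumour's arrays where it had 2. A single tumour was taken to have the spread of the remaining 11. Adjustment was by Benjamini-Hochberg over all genes. For the tests of 1 tumour against 11 it was made within each tumour and not over the 12 tumours together. Correlations used 100000 permutations, two-sided. Other steps used Python 3.11.15, numpy 2.4.6, pandas 2.3.3, scipy 1.17.1 and matplotlib 3.10.9.

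Tested on simulated data (16535 genes), the F-test called 58 of 100 genes simulated at an SD of 1, 99 of 100 at an SD of 2 and 5 of 16335 unchanged genes. The comparison of 1 tumour with 11 called 88 of 100 genes shifted by 2, 100 of 100 shifted by 4 and 16 unchanged genes. The slope fit called 199 of 200 genes with a slope of 1 per SD and 14 unchanged genes. Simulated noise had the within-tumour spread only (typical SD 0.313). Real tumours also differed from each other, with a median SD of 0.386 for all genes and 0.562 for the family. The shares for the last 2 tests are therefore too high for genes that vary between tumours. In the real data a difference of 5.45 (Rspo1 in T221) was not called. Genes described in full are those called by the F-test or in 1 tumour, and, for the 2 other lists, up to 12 called genes by SD. The members and lists were chosen with earlier results of these data known. Genes outside that rule are named for their place in a role or because their values were seen.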

Additional observations from a re-analysis of the deposited data

How the results depend on the processing

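With calls at an adjusted p under 0.01, 12 of the 51 genes differed between tumours instead of 20. The count was 22 after quantile normalization, 19 with 1 probe per gene and with a robust prior, and 20 with genes on all 14 arrays or with the annotation's symbols. Leaving out 1 tumour or 1 array gave 17 to 25. The share of all genes called moved too, with 18.3% in the main run and 24.8% after quantile normalization. It was 23.8% without the first array of T172, where 25 family genes were called. Without T176 and without T221, where 17 were called, it was 14.9% and 17.6%. The count of 4 genes called in 1 tumour against 11 ran between 2 and 4 when 1 tumour or array was left out, with 2 when T176 was, and was 2 when T172 and T284 were left out together, an alternative added once the data had been seen. The count of 5 genes with a slope on the basal mean was 3 after quantile normalization, 1 to 7 when 1 tumour or array was left out and 1 without T172 and T284. The count of 1 on the matrix mean was 1 to 2, and those on the T cell mean and on Axin2 stayed at 0. With both second arrays left out, also chosen after seeing the data, 3 genes were called in 1 tumour, and 4 and 1 on the basal and matrix means. Without T920 Wnt10b lost its F-test call (adjusted p = 0.134). No difference or slope of a called gene changed sign in any alternative run. The causes of these changes were not tested. The F-test cannot be run without both second arrays. Signal over background was not known, so dim probes could not be set apart.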
